A study of Homo sapiens with 18 samples.

Results

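Expression of the genes of homologous recombination and of the Fanconi pathway was examined with and without Erastin in U87MG, a long-established line of human glioblastoma cells. The genes were taken by name from the 2 pathways and the damage kinases and mediators that act with them. The rule holds no measured value, but the members were chosen with earlier results of these data known. In this way 37 genes were chosen out of 58302 in the table, and all 37 were found and passed the filter on low counts. RNA-seq had been performed on 2 libraries of control cells, whose labels describe normal growth, and on 2 libraries of cells given Erastin at 10 μM for 72 h. Erastin blocks the import of cystine through system Xc- and induces ferroptosis, a form of cell death driven by iron and lipid peroxidation. Both groups were the same cell line without any introduced allele, and the labels do not say whether the replicates were separate cultures, so p-values measure only the spread between these libraries.

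Homologous recombination repairs a broken chromosome by copying the sister chromatid. The ends are trimmed to single strands, a protein filament forms on them with the help of BRCA2 and invades the intact copy, and the joined molecules are then separated by helicases and nucleases. The Fanconi pathway removes crosslinks between DNA strands: a core complex attaches ubiquitin to the FANCD2-FANCI pair, which brings in nucleases and then hands the break to recombination. Many of these genes are known to be transcribed mainly while DNA is being copied, under E2F factors, and glioblastoma cells are known to rely on them after alkylating drugs and radiation.

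The libraries held between 29412656 and 31513519 counts on genes, and the 37 genes took 0.127% and 0.139% of the counts in control cells and 0.0817% and 0.0806% with Erastin. Of 7 markers of mesenchymal glioblastoma lines all were counted, among them VIM, CD44 and FN1. GFAP, the filament protein of astrocytes, had only 41 to 81 counts per library. AQP4, OLIG1, SOX10, CD3E and HBB were at 0 counts in all 4 libraries. Before TMM scaling, the 7 mesenchymal markers summed to 12664 and 13347 CPM in control cells and 6292 and 6518 CPM with Erastin, the 5 astrocyte markers to 57.0 and 57.0 CPM against 13.5 and 13.4 CPM, and the 6 immune and blood markers to at most 0.51 CPM. Mitochondrial genes took 7.85% and 7.23% of the counts in control cells and 2.80% and 3.54% in Erastin-treated cells, and the part of these shifts in the results was not tested.

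Most of the recombination and Fanconi genes were lower in Erastin-treated cells, some did not pass the test, and 2 were slightly higher. Using edgeR, 20 of 37 genes were called lower (log2 fold change of at most −1 and adjusted p under 0.05), against a background of 9.34% of all 16751 genes tested. None was called higher by edgeR (background 6.24%), where 0 reached that size at an unadjusted p under 0.05 and 0 were called by DESeq2. With adjusted p alone, 27 genes were lower (background 23.7%), 2 were higher (background 23.2%) and 8 did not pass. Both Erastin libraries lay below both control libraries for 30 genes (background 36.9%) and above them for 3 genes (background 36.7%), and 4 genes overlapped. The median log2 fold change was −1.26 over the 37 genes and −0.003 over all genes tested.

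Summed over the 37 genes, expression was 1309 and 1398 CPM (counts scaled by library size and TMM factor) in the control libraries and 804 and 794 CPM with Erastin. In bulk RNA, fewer cells that express these genes and less of their RNA per cell cannot be told apart. By role, the Erastin sum was 22.1% of the control sum for strand exchange and junction processing, 24.2% for the FANCD2-FANCI pair, 44.6% for the core complex, 48.5% for the BRCA complexes, 65.6% for the damage kinases and mediators, 74.3% for the group of RAD51B, RAD51C, RAD51D, XRCC2 and XRCC3 and 96.6% for break sensing and end resection. These sums are dominated by the members with most counts and carry no test.

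**Figure D1:**
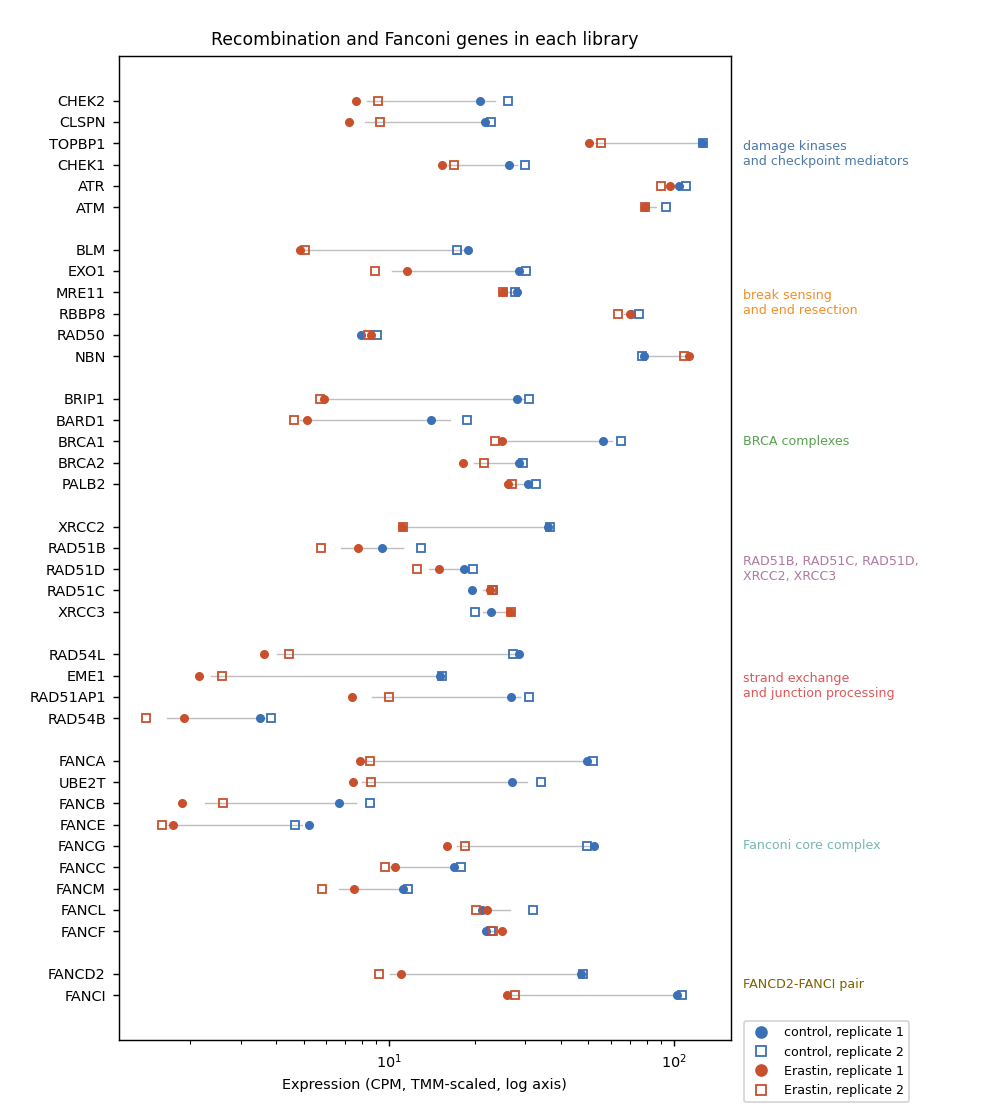
Expression of each of the 37 genes in each library (CPM on a log axis), ordered within role by fold change, with controls in blue, Erastin in orange, circles for replicate 1 and squares for replicate 2, and a grey line between the group means. The Erastin libraries lie far to the left of the controls in the strand exchange genes and the FANCD2-FANCI pair, while RAD50, RAD51C and FANCF sit together and NBN lies to the right.

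E2F factors bind short words near the start of many genes of DNA copying, and to show them the members' promoters were searched. A promoter of 300 bases (250 before and 50 after the RefSeq start, GRCh38.p14) was present for 34 of 37 genes, and RAD54B, NBN and FANCI had no entry. The words TTTCCCGC, TTTCGCGC, TTTGCCGC and TTTGGCGC were searched on both strands. They were found in 6 of 18 promoters of genes called lower (33.3%), in 1 of 16 promoters of genes not called (6.25%) and in 908 of 27305 promoters of the whole table (3.33%). The whole table also holds promoters of genes outside the 16751 tested, so it is not a background of expressed genes. Each stretch of 30 bases that holds such a word in a member is printed 5′ to 3′ on the strand of the gene, with the word in capitals.
FANCA (chr16:89816801-89816830, minus strand): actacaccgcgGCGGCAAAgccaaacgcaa
FANCD2 (chr3:10026424-10026453, plus strand): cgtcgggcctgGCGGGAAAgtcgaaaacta
XRCC2 (chr7:152676102-152676131, minus strand): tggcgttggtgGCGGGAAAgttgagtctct
EXO1 (chr1:241848197-241848226, plus strand): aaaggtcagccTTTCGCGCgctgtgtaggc
CLSPN (chr1:35769965-35769994, minus strand): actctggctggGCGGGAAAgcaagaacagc
TOPBP1 (chr3:133661930-133661959, minus strand): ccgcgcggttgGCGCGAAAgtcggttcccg
FANCC, upstream word (chr9:95317863-95317892, minus strand): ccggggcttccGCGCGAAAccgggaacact
FANCC, downstream word (chr9:95317737-95317766, minus strand): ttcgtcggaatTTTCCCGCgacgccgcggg
In FANCD2, CLSPN and TOPBP1 the word spanned or touched the annotated start base, in XRCC2 and EXO1 it lay just after it, and in FANCA it began at position −172. FANCC, the only gene of the 7 that was not called, carried 2 words and had an adjusted p under 0.05 with a log2 fold change of −0.79. These shares carry no test, and a match describes the letters and not a bound site. The largest fall, that of RAD54L, was in a gene with none of these words in its window.

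Other words were searched in the same windows. CCAAT boxes, the word of the factor NF-Y, searched on both strands, were in 8 of 18 promoters of genes called lower (44.4%), in 7 of 16 of genes not called (43.8%) and in 35.7% of all promoters. The words TTTGAA and TTCGAA, which mark genes of late cell cycle, were in 2 of 18, 2 of 16 and 16.6% of all. To show that the word occurs upstream of both kinds of gene, the 120 bases upstream of CLSPN, which was called lower, and a stretch of the same length upstream of XRCC3, which was not called, are shown with each CCAAT box in capitals.
CLSPN (chr1:35769979-35770098, minus strand): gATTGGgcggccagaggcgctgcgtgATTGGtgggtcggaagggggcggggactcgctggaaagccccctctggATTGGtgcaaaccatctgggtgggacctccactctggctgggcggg
XRCC3 (chr14:103715505-103715624, minus strand): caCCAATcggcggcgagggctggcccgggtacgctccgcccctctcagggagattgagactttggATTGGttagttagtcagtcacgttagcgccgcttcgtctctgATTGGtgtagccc
Each stretch held 3 boxes, counting both strands, and in the whole window of 300 bases CLSPN held 3 and XRCC3 held 5.

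The genes of strand exchange and junction processing were the role with the lowest median, −2.21 on the log2 scale, and all 4 were called lower. RAD54L (ENSG00000085999, chromosome 1 from 46247688 to 46278473), a motor protein that helps a broken strand to invade its partner, had 871 and 841 counts in control cells and 108 and 139 with Erastin. It fell 6.90-fold (log2 fold change −2.79 ± 0.15 SE, edgeR adjusted p = 3.79e-08), the largest change of the 37 genes. EME1 (ENSG00000154920, chromosome 17 from 50373220 to 50381483), the partner of the nuclease MUS81, went from 461 and 475 counts to 64 and 81, a fall of 6.42-fold (−2.68 ± 0.18 SE, edgeR adjusted p = 3.13e-07). In both genes the Erastin libraries were far below the controls and close to each other. RAD51AP1, which stimulates strand invasion, had a log2 fold change of −1.73. RAD54B, a relative of RAD54L, was the weakest of the group, with 107 and 119 counts against 57 and 44 (−1.15 ± 0.30 SE, edgeR adjusted p = 0.00762). Without Erastin replicate 2 its log2 fold change was −0.94, and it was then no longer called. RAD54B shares 59.1% of its exon bases with FSBP on the same strand, where reads were not counted for either gene, so its counts come from the remaining 40.9%.

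MUS81, the catalytic partner of EME1, had 1152 and 1062 counts against 1064 and 1226 (0.05 ± 0.10 SE, edgeR adjusted p = 0.695), and was named after its values were seen. The 2 subunits of that nuclease thus had log2 fold changes of −2.68 and 0.05.

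FANCD2 and FANCI, which carry the ubiquitin mark at the centre of the Fanconi pathway, were both called lower. FANCD2 (ENSG00000144554, chromosome 3 from 10026414 to 10101930) had 1440 and 1491 counts in control cells and 328 and 288 with Erastin, a fall of 4.73-fold (−2.24 ± 0.12 SE, edgeR adjusted p = 3.65e-08). FANCI had 3142 and 3309 counts against 774 and 866, a fall of 3.92-fold (−1.97 ± 0.08 SE, edgeR adjusted p = 4.06e-09). The groups lay far apart in both genes. The level per length (TPM, computed from the counts and exon lengths) was 19.6 ± 0.851 for FANCD2 and 46.6 ± 2.58 for FANCI in control cells (SD, n = 2), and 4.74 ± 0.665 and 13.6 ± 0.416 with Erastin, so FANCI stayed the more abundant.

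Of the 9 genes of the Fanconi core complex and its ubiquitin-conjugating enzyme, 5 were called lower, 7 were lower at adjusted p alone and 2 did not pass. FANCA (ENSG00000187741, chromosome 16 from 89737549 to 89816657), a scaffold subunit, had 1506 and 1610 counts in control cells and 236 and 268 with Erastin, a fall of 6.15-fold (−2.62 ± 0.11 SE, edgeR adjusted p = 5.92e-09). UBE2T, the enzyme that passes ubiquitin to FANCD2, had 824 and 1057 counts against 223 and 270 (−1.92 ± 0.15 SE, edgeR adjusted p = 7.83e-07). It had the highest control level per length of the 37 genes, 99.2 ± 19.2 TPM (SD, n = 2), and 29.7 ± 2.56 TPM with Erastin. FANCB, a subunit of the catalytic part, had 203 and 266 counts against 56 and 82 (−1.76 ± 0.25 SE, edgeR adjusted p = 0.000127). FANCE and FANCG, further subunits, had log2 fold changes of −1.57 and −1.56 and were called lower, while FANCC and the helicase FANCM were lower by adjusted p with −0.79 and −0.78.

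FANCL and FANCF were the 2 core genes that did not pass. FANCL, the subunit that works as the ubiquitin ligase together with UBE2T, had 649 and 991 counts in control cells and 657 and 632 with Erastin (−0.34 ± 0.17 SE, edgeR adjusted p = 0.117). Control replicate 2 was the highest library, control replicate 1 lay among the Erastin libraries, and the groups overlapped. Its log2 fold change ran from −0.60 without control replicate 1 (edgeR adjusted p = 8.19e-05) to −0.02 without control replicate 2 (edgeR adjusted p = 0.926). FANCF, an adaptor subunit encoded by a single exon, had 669 and 708 counts against 742 and 728 (0.10 ± 0.11 SE, edgeR adjusted p = 0.480), with a 95% interval from −0.14 to 0.34.

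**Figure D2:**
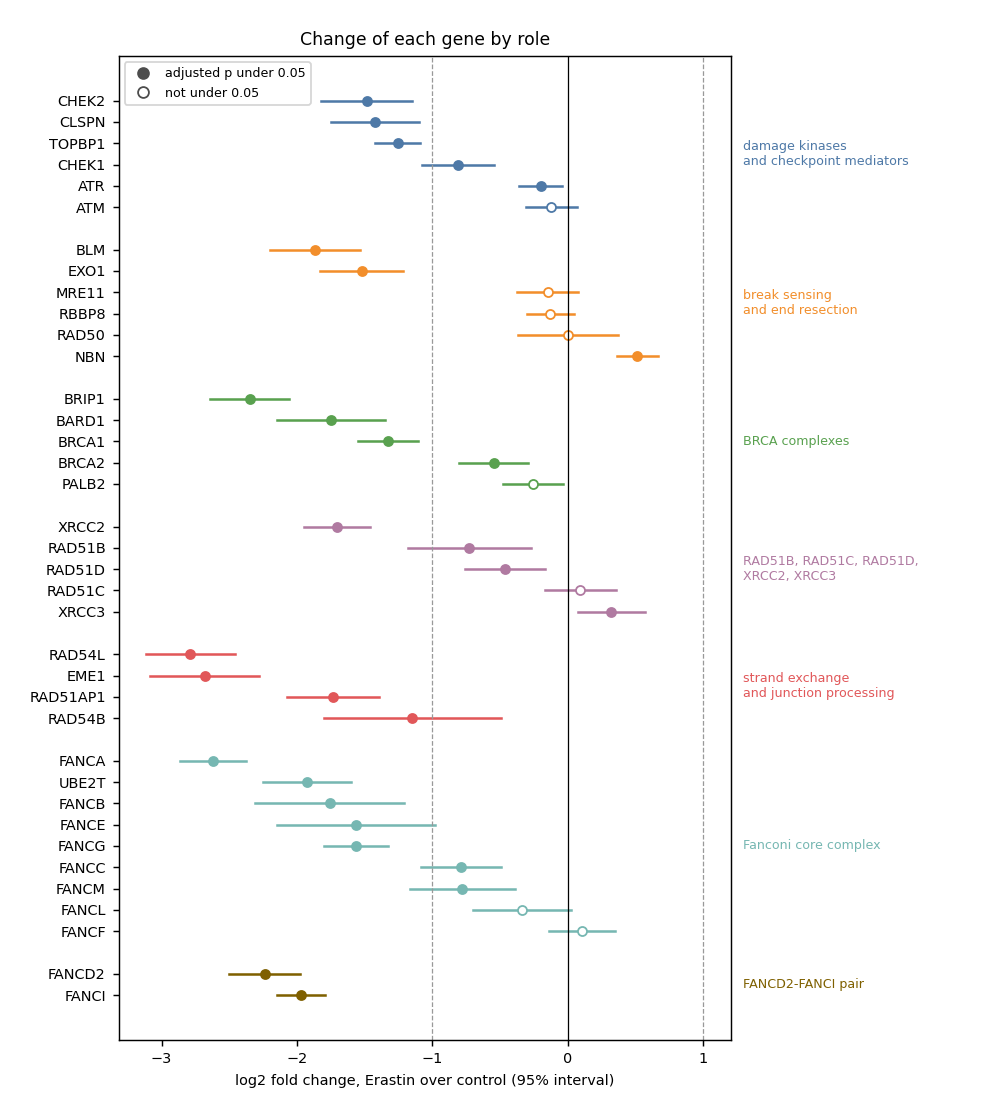
Log2 fold change of each gene, Erastin over control, with its 95% interval from edgeR, grouped by role; filled points passed an adjusted p of 0.05 and dashed lines mark −1 and 1. Strand exchange genes and the FANCD2-FANCI pair lie wholly left of −1 as points, and the MRE11, RBBP8, RAD50 and NBN points lie between −0.15 and 0.51.

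Break sensing and end resection divided by step. MRE11, RAD50 and NBN form the complex that first binds a broken end, and RBBP8 (CtIP) starts its trimming, whereas EXO1 and BLM carry the trimming over long distances. The long-range pair was called lower: BLM, a helicase, had 579 and 535 counts in control cells and 145 and 159 with Erastin (−1.87 ± 0.15 SE, edgeR adjusted p = 1.28e-06), and EXO1, a nuclease, had a log2 fold change of −1.52. MRE11 had 856 and 859 counts against 750 and 789 (−0.15 ± 0.10 SE, edgeR adjusted p = 0.264). RBBP8 had 2159 and 2330 counts against 2091 and 1989 (−0.13 ± 0.08 SE, edgeR adjusted p = 0.214). In both genes the Erastin libraries lay slightly below the controls by CPM, within a change that did not pass the test.

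NBN (ENSG00000104320, chromosome 8 from 89933336 to 90003228), the subunit that binds ATM, was the member that rose most. It had 2396 and 2389 counts in control cells and 3378 and 3411 with Erastin, 1.43-fold higher (0.51 ± 0.07 SE, edgeR adjusted p = 8.22e-05), with replicates almost equal within each group. In level per length it went from 43.6 ± 0.729 to 70.9 ± 2.97 TPM (SD, n = 2), from rank 6 among the 37 genes to rank 1. RAD50, its partner, had 242 and 282 counts against 258 and 264 (0.00278 ± 0.17 SE, edgeR adjusted p = 0.992), and the groups overlapped. RAD50 shares 79.7% of its exon bases with a same-strand gene, ENSG00000283782, which had 0 to 6 counts, so its counts come from the remaining 20.3% of its exons and its level per length is understated.

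Of the BRCA complexes, 3 of 5 genes were called lower and 4 were lower at adjusted p alone. BRIP1 (ENSG00000136492, chromosome 17 from 61681266 to 61863521), a helicase that binds BRCA1, had 858 and 964 counts in control cells and 176 and 179 with Erastin, a fall of 5.10-fold (−2.35 ± 0.13 SE, edgeR adjusted p = 5.66e-08). BARD1, the obligate partner of BRCA1, had 427 and 582 counts against 153 and 145 (−1.75 ± 0.18 SE, edgeR adjusted p = 1.02e-05). BRCA1, a ubiquitin ligase that opens the way to resection, had 1720 and 2018 counts against 743 and 736, a log2 fold change of −1.33. BRCA2, which helps to build the filament, was lower by adjusted p with −0.55 and was not called. PALB2, which joins BRCA1 to BRCA2, had 941 and 1017 counts against 781 and 849 (−0.26 ± 0.10 SE, edgeR adjusted p = 0.0576). The 95% intervals of BRCA1 (−1.55 to −1.11) and BRCA2 (−0.81 to −0.29) did not meet.

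The group of RAD51B, RAD51C, RAD51D, XRCC2 and XRCC3, 5 related genes whose proteins stabilise the filament, included 1 gene called lower and 1 gene higher at adjusted p. XRCC2 (ENSG00000196584, chromosome 7 from 152644779 to 152676165) had 1101 and 1136 counts in control cells and 330 and 351 with Erastin, a fall of 3.27-fold (−1.71 ± 0.11 SE, edgeR adjusted p = 1.99e-07). RAD51B and RAD51D, which sit in a complex with XRCC2, were lower by adjusted p with −0.73 and −0.46, calls that were lost without Erastin replicate 2 (−0.52 and −0.34) and, for RAD51B, without control replicate 2 (−0.49). RAD51C, a member of both complexes of this group, had 597 and 718 counts against 675 and 719 (0.09 ± 0.12 SE, edgeR adjusted p = 0.568), and its groups overlapped. XRCC3, the partner of RAD51C in the second complex, had 697 and 619 counts against 795 and 842, 1.25-fold higher (0.32 ± 0.11 SE, edgeR adjusted p = 0.0363). The XRCC3 call is the less certain of the 2 rises: DESeq2 did not make it, and the edgeR adjusted p was 0.219 without control replicate 2, 0.121 without Erastin replicate 1 and 0.127 without Erastin replicate 2. Moreover, 76.7% of the exon bases of XRCC3 lie over KLC1 on the opposite strand. KLC1 itself had 1799 and 1876 counts against 2221 and 2293 (0.30 ± 0.07 SE, edgeR adjusted p = 0.00512), and reads on the shared bases were counted for neither gene. The counts of XRCC3 thus come from the remaining 23.3% of its exon bases, and were made without regard to strand.

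Among the damage kinases and checkpoint mediators, the genes that start the signal and those that pass it on had different values. ATM and ATR are the kinases that sense breaks and single-stranded DNA. ATM had 2408 and 2899 counts in control cells and 2373 and 2478 with Erastin (−0.12 ± 0.09 SE, edgeR adjusted p = 0.276), with −0.24 (edgeR adjusted p = 0.0153) when control replicate 1 was left out and −0.0017 (edgeR adjusted p = 0.990) when control replicate 2 was left out. ATR had a log2 fold change of −0.20 (edgeR adjusted p = 0.0385). That call was not made by DESeq2, nor with library totals in place of TMM factors (−0.15, edgeR adjusted p = 0.116). It was also lost without control replicate 2 (−0.17), Erastin replicate 1 (−0.25) or Erastin replicate 2 (−0.15). CHEK2, the kinase that ATM switches on, had 638 and 809 counts against 228 and 286 (−1.49 ± 0.15 SE, edgeR adjusted p = 9.66e-06). CLSPN and TOPBP1, the mediators of ATR signalling, had −1.43 and −1.26 and were called lower, and CHEK1, the kinase that ATR switches on, was lower by adjusted p with −0.81. The 95% intervals of ATM and ATR lay between −0.36 and 0.07 and those of CHEK2, CLSPN and TOPBP1 between −1.82 and −1.09. That of CHEK1 lay between these sets, from −1.07 to −0.55.

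In level per length the 37 genes spanned 2.39 TPM for RAD54B to 99.2 TPM for UBE2T in control cells, with a median of 15.9 TPM. With Erastin they spanned 1.23 TPM for RAD54B to 70.9 TPM for NBN, with a median of 9.02 TPM. The lowest level belongs to a gene whose exons are mostly shared, as given above. Across the 37 genes, which are not independent replicates, the log2 fold change had a Spearman rho of −0.18 with the control level per length and of 0.30 with exon length.

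The cell-cycle lists moved with these genes in the same libraries. Of 39 S-phase genes of the Seurat list that are not among the 37, 26 were called lower (66.7%, background 9.34%). The median log2 fold change of the 39 was −1.41, and their sum went from 2118 and 2113 CPM to 952 and 913 CPM. UBR7, called lower at −2.18, had 33 and 305 control counts against 50 and 23, and its groups overlapped. CDCA7 had the largest fall of that list, from 385 and 436 counts to 56 and 59 (−2.83 ± 0.19 SE, edgeR adjusted p = 3.23e-07). Of 54 G2/M-phase genes, 45 were called lower (83.3%, background 9.34%). The median of the 54 was −2.74, and their summed level with Erastin was 31.7% of control. CDC20, which starts the exit from mitosis, had the largest fall, from 3514 and 3204 counts to 142 and 130 (−4.62 ± 0.11 SE, edgeR adjusted p = 1.98e-10). RAD51AP1, EXO1, BLM and CLSPN are themselves in the S-phase list, and all 4 were called lower. Among the 33 genes outside it, 16 were called lower (48.5%, background 9.34%), and the median of the 33 was −0.81. The part of these lists in the result was not tested.

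Wider lists of break repair were written from general knowledge, with earlier results of these data known. Among 47 further genes of recombination and the Fanconi pathway that could be tested, 5 were called lower (10.6%, background 9.34%) and 1 higher (2.13%, background 6.24%), 21 were lower and 8 higher at adjusted p alone, and the median log2 fold change was −0.29. RMI2, a partner of BLM in dissolving joined molecules, had the largest fall, with 511 and 550 counts in control cells and 86 and 84 with Erastin (−2.63 ± 0.17 SE, edgeR adjusted p = 1.67e-07). HUS1, a subunit of the checkpoint clamp that loads at damaged DNA, was the gene called higher, with 781 and 818 counts against 1607 and 1779 (1.09 ± 0.09 SE, edgeR adjusted p = 1.66e-06). The other route for broken ends is non-homologous end joining, which ligates them without a template. None of its 17 genes tested was called lower by edgeR (background 9.34%), a share that in so short a list amounts to few genes. At an unadjusted p under 0.05, 0 reached that size and 5 were lower in any size, and DESeq2 called 0. At adjusted p alone 3 were lower (17.6%, background 23.7%) and 2 higher (11.8%, background 23.2%), and the median was −0.09. SHLD3, a subunit of shieldin, which keeps ends from being trimmed, was the 1 gene called higher (5.88%, background 6.24%). It had 52 and 64 counts against 134 and 146 (1.28 ± 0.27 SE, edgeR adjusted p = 0.00206). These lists are described by their counts, and no test of one list against another was made.

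**Figure D3:**
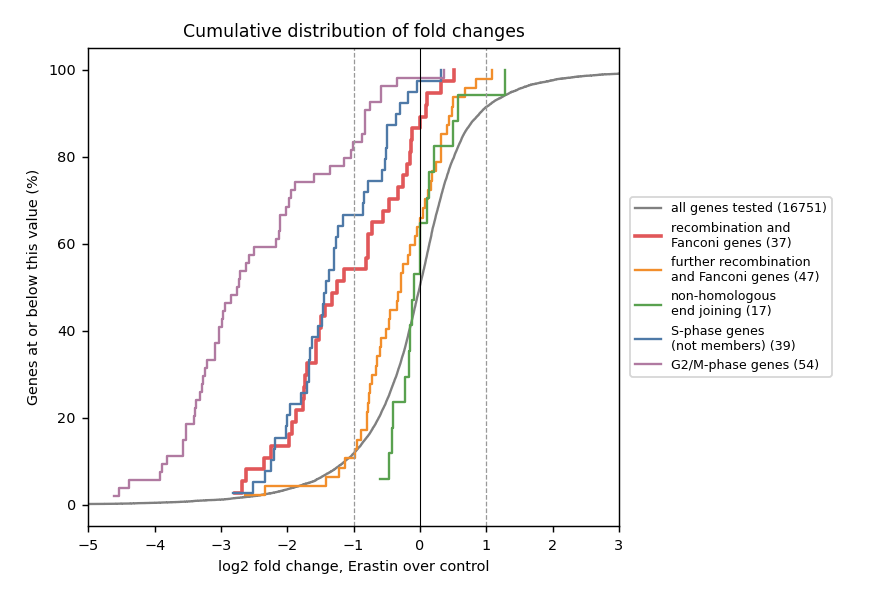
Share of genes at or below each log2 fold change (Erastin over control) for the 37 recombination and Fanconi genes in red, 4 comparison lists and all 16751 genes tested in grey; dashed lines mark −1 and 1. The red curve and that of the S-phase genes have lowest values of −2.79 and −2.83 and medians of −1.26 and −1.41. At adjusted p alone, 73.0% and 89.7% of these genes were lower. The 4 members of the S-phase list are in the red curve only, and the other 33 members have a median of −0.81. The further recombination genes (median −0.29) and end-joining genes (median −0.09) lie nearer to all genes.

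Several of these genes start back to back with a neighbour on the opposite strand, so that 1 stretch of DNA holds both starts. By the annotated gene ends, 10 of the 37 had a tested neighbour that starts within 1000 bases. In 6 of the 10 pairs the repair gene was called lower. In those 6 the neighbour had a log2 fold change over 0, and 4 passed an adjusted p of 0.05 as higher. Among all 16751 genes tested, 8413 had a log2 fold change below 0 and 23.2% were higher at adjusted p alone. These counts of neighbours are few and carry no test. EME1 and MRPL27, a mitochondrial ribosomal protein gene, start 6 bases apart, and MRPL27 had 1016 and 918 counts in control cells and 1201 and 1404 with Erastin (0.43 ± 0.10 SE, edgeR adjusted p = 0.00459). FANCD2 lies 49 bases from CIDECP1, a pseudogene whose reads may be shared with its parent gene, which had 0.61 (edgeR adjusted p = 0.00521). By its outermost annotated end, BRCA1 lies 236 bases from NBR1, an autophagy receptor gene. NBR1 had 5596 and 5384 counts against 7087 and 7654 (0.43 ± 0.07 SE, edgeR adjusted p = 0.000213). Other starts of BRCA1 were not looked at, so this pair may not share 1 stretch of DNA. NBR2, a non-coding gene that starts inside the annotated BRCA1 gene, had 274 and 246 counts against 457 and 469. RAD51AP1 lies 290 bases from C12orf4, which had 0.40 (edgeR adjusted p = 0.00387). The neighbours of FANCB and BARD1, MOSPD2 at 0.23 and SNHG31 at 1.56, did not pass (edgeR adjusted p = 0.0895 and 0.0666), and SNHG31 had 5 to 27 counts.

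Among the 4 pairs whose repair gene was not called, PALB2 and DCTN5 start 82 bases apart, and DCTN5, a dynactin subunit gene, had 4060 and 4160 counts against 5488 and 5897 (0.48 ± 0.07 SE, edgeR adjusted p = 8.76e-05). FKBP3 beside FANCM had −0.07 and ZFYVE21 beside XRCC3 had 0.05, and neither passed. NPAT, the histone gene activator whose start overlaps that of ATM by 158 bases, had 608 and 670 counts against 503 and 432 (−0.44 ± 0.13 SE, edgeR adjusted p = 0.0180), the only neighbour that was lower at adjusted p. The 95% intervals of the repair gene and its neighbour did not meet in 8 of the 10 pairs, the exceptions being ATM with NPAT and XRCC3 with ZFYVE21. These differences within a pair were not tested directly.

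**Figure D4:**
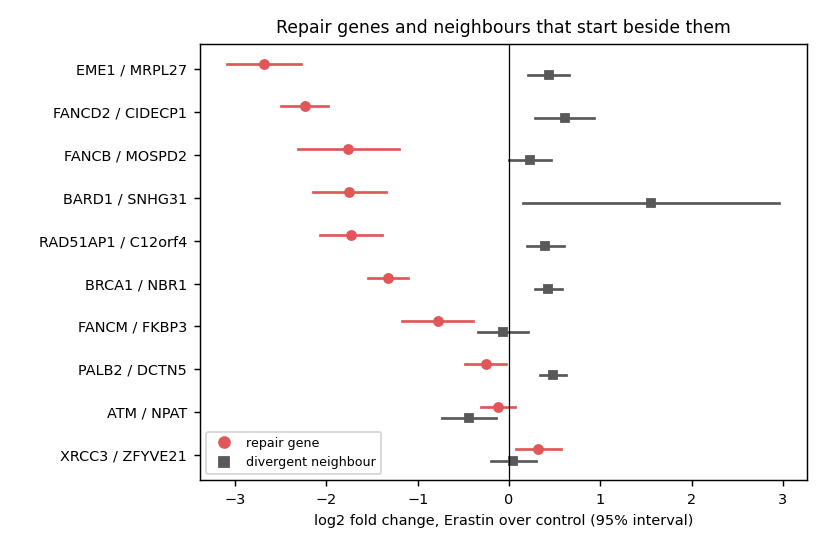
Log2 fold change with its 95% interval (Erastin over control, edgeR) for 10 repair genes, red circles, and their neighbours, dark squares. By the annotated gene ends, each neighbour starts beside its repair gene on the opposite strand. In the upper 6 pairs the circles lie between −2.68 and −1.33 and the squares between 0.23 and 1.56.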

How the data were processed

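Total RNA of U87MG cells had been sequenced in 4 libraries, 2 per group. The authors deposited raw counts of reads per gene, without normalization. Decimals, as estimated counts would have, were looked for in the deposited values, and 0 values were not whole. Per the file header the table was written by featureCounts 2.0.3 (the labels give 2.0.4, the methods htseq-count) with Ensembl 90 on GRCh38, after HISAT2 2.1.0 by the labels. Strand was ignored, reads rather than pairs were counted, and reads on several genes or places were left out, which removes the reads of exon stretches that genes share: 21 of the 37 genes share some, 3 of them over 50%.

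Groups came from the labels. The main test was that of edgeR 4.0.16 in R 4.3.3 (low counts removed by filterByExpr at a minimum count of 10, TMM factors 0.971 to 1.02, quasi-likelihood test, two-sided, Benjamini-Hochberg adjustment over 16751 genes). Calls needed an adjusted p under 0.05 and a log2 fold change of 1 or more, up or down. The coefficient of variation between replicates was 10.3%, and replicates differed by more than sampling noise (chi-square per gene 11.1 and 9.10). Standard errors were derived from each F statistic. With 2 libraries a group, the smallest p of an exact permutation test is 0.333. TPM was computed from counts and the exon lengths of the table. The method was tested on simulated data.

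The rule for the members uses gene names alone, but the members and lists were chosen with earlier results of these data known. Every member is named. Values by library are given for the 10 largest changes, the genes higher, the genes that did not pass, the ends of each role, and the called extremes of each list. Alternatives were DESeq2 1.42.0, RLE factors, library totals, no filter, 10 counts in every library, a replicate block, read pairs, glmTreat and each library left out. Leaving out the 3 genes with shared exons was added after the data were seen. Promoter sequences are from RefSeq on GRCh38.p14. The 14 ChIP-seq and HiChIP samples were not analysed here.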

Additional observations from a re-analysis of the deposited data

How the results depend on the processing

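Of the 20 genes called lower, 18 were called in all 12 alternatives. RAD54B was lost with glmTreat and without Erastin replicate 2, and FANCE with glmTreat. Leaving out each library in turn gave 19 to 20 members called lower, 24 to 29 lower at adjusted p alone, 1 to 2 higher at adjusted p alone, a median log2 fold change of −1.29 to −1.23, and 895 to 1066 genes higher and 1446 to 1526 lower among all genes. The 2 genes higher at adjusted p alone became 1 with DESeq2, without the 3 genes of shared exons, and without control replicate 2, Erastin replicate 1 or Erastin replicate 2, NBN being the gene kept in each. Without the 3 genes of shared exons the median was −1.38, and 19 of 34 were called lower. glmTreat called 377 genes higher and 748 lower, since it tests against a fold rather than against 0. RAD50 and RAD51C, near 0, changed sign: RAD50 was at −0.0018 with no filter, −0.0013 with read pairs and between −0.10 and 0.10 with a library left out, and RAD51C was at −0.0271 without control replicate 1 and at up to 0.21 without another library. With a replicate block, 20 members were called lower, and 1039 genes were higher and 1568 lower. The differences between replicates 1 and 2 of the 2 groups had a correlation of 0.0203 across genes. That value cannot decide whether same-numbered libraries shared a culture or a batch. Among 444 values of single members over all alternatives, 412 kept their direction and their side of an adjusted p of 0.05. Of the rest, 23 lost the adjusted p, 4 gained it and 5 changed sign. Of the 23, 11 came from glmTreat, whose p tests against a log2 fold change of 1, so those are not losses in the same test. RAD54B had the fewest control counts of the members, 107 and 119.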

Other observations

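Helpers of recombination outside the 37 genes also had unequal values within a complex, and these were named after their values were seen. Of the RPA trimer that coats single-stranded DNA, RPA3 had 1601 and 1604 counts in control cells and 682 and 693 with Erastin (−1.21 ± 0.09 SE, edgeR adjusted p = 8.23e-07), RPA1 had a log2 fold change of −0.95 (edgeR adjusted p = 1.58e-06) and RPA2 had −0.04 (edgeR adjusted p = 0.731). Of the checkpoint clamp, HUS1 was higher at 1.09 while RAD9A had −0.59 (edgeR adjusted p = 0.00782) and RAD1 had −0.33 (edgeR adjusted p = 0.0503). POLQ, the polymerase of the end-joining route that uses short repeats, had 1558 and 1429 counts against 267 and 325 (−2.33 ± 0.12 SE, edgeR adjusted p = 2.90e-08).

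TOP3A, the topoisomerase that works with BLM and RMI2, went from 39 and 266 counts in control cells to 111 and 380 with Erastin (0.68 ± 0.64 SE, edgeR adjusted p = 0.414). Its replicates differed more than its groups, and no direction is read from it.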
